A study of Mus musculus with 5 samples.

Results

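The 34 genes described here form the p53 and apoptosis module of the transcriptome of MIN6 cells. They are p53 itself and its regulators, genes listed as p53 targets, death receptors, and the BCL2 family other than Bcl2. The caspases and mitochondrial proteins that carry out cell death complete the list. They were chosen by gene name and not by a cut on measured values, though earlier results of these data were known. All 34 were on the array, out of 31829 gene names. The brightest probe of each gene stood for it, and 33 of the 34 passed the filter on dim probes.

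The p53 protein is a transcription factor that is kept scarce by Mdm2 and Mdm4 and that accumulates after DNA damage and other stress. It then raises genes that halt the cell cycle, such as Cdkn1a, and genes that promote death, such as Bax, Bbc3 and Pmaip1. In the mitochondrial pathway of apoptosis, BH3-only proteins set free or activate Bax and Bak1, which open the outer mitochondrial membrane, while Bcl2l1, Bcl2l2 and Mcl1 hold them back. The released cytochrome c assembles with Apaf1 and Casp9, and death receptors reach the same executioners through Casp8. Beta cells are known to use this machinery when they die under lipid, inflammatory or endoplasmic reticulum stress.

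MIN6 is an insulin-secreting line from a mouse insulinoma. All samples received exosomes, small vesicles that cells release, purified from dissected mouse muscle that was kept in medium. The 2 EXO-STD samples, titled control, received vesicles from muscle of mice fed a standard diet, and the 3 EXO-HP samples, titled treated, received vesicles whose donor mice had eaten a high fat diet. No group without vesicles was analysed here, and the labels give no strain, age, dose or duration, nor whether muscle of several mice was pooled. The samples are called biological replicates, but nothing says that they came from separate cultures or vesicle preparations, so p-values measure only the spread between these arrays, part of which may be technical. The comparison asks whether vesicles from muscle of fat-fed mice leave a different mark on beta cells than those of control mice.

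Each sample was measured on 1 single-colour Agilent array. Levels are given as normalised log2 signal, on which 0 is the 75th percentile of an array and 1 unit is a 2-fold step, and a level of one gene cannot be set against that of another. Slide 1, read in scan 1, carried both EXO-STD arrays with EXO-HP replicate 1, and slide 2, read in scan 2, carried the other two EXO-HP arrays. Between 71.8% and 74.0% of spots were well above background on slide 1, against 91.6% (EXO-HP replicate 2) and 81.6% (replicate 3) on slide 2. The dimmest decile of probes stood above the EXO-STD mean by a median of 0.23 on EXO-HP replicate 1, by 1.53 on replicate 2 and by 0.74 on replicate 3. All 10 beta cell markers, Ins1 and Ins2 among them, were well above background on all arrays. The number of arrays limits the precision.

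None of the 33 tested genes passed the test between the groups. With limma, 0 of 33 passed adjusted p 0.05, as for 0% of all 31943 tested probes, and each had an adjusted p of 0.9999. At an unadjusted p under 0.05 there were again 0 of 33, against 5.6% of all probes (5.36% higher in EXO-HP and 0.238% lower). The EXO-HP mean was higher for 16 and lower for 17, with a median log2 fold change (EXO-HP minus EXO-STD) of -0.01 and a range from -0.41 to 0.59. Among the 16 is Fas, which passed the filter on dim probes only through its EXO-HP arrays. Over all tested probes the median was 0.07 and 62.8% were higher. The readings of EXO-HP and EXO-STD did not overlap for 2 of the 33, or 6.06%, against 17.8% of all probes. These were Trp53, which lay above as did 15.1% of all probes, and Gadd45a, which lay below as did 2.76%.

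The intervals show how wide a range of differences the spread between these arrays allows. Each is for a single gene and makes no allowance for a shift between slides or for the number of probes tested. The 95% interval of the fold change lay within 2-fold in either direction for 27 of 33 genes (81.8%, against 62.2% of all tested probes) and within 1.5-fold for 6 (18.2%, against 3207 of the 31943 probes). For 28 of 33 (84.8%, against 63.9% of all tested probes) the log2 fold change was smaller than 0.25 in size. Fas, dim in EXO-STD, is counted among the genes within 2-fold and among these 28. For 27 of 33 (81.8%, against 67.4%) the EXO-STD replicates differed from each other by more than the group means did. The median standard error was 0.23, against 0.27 over all tested probes.

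**Figure D1:**
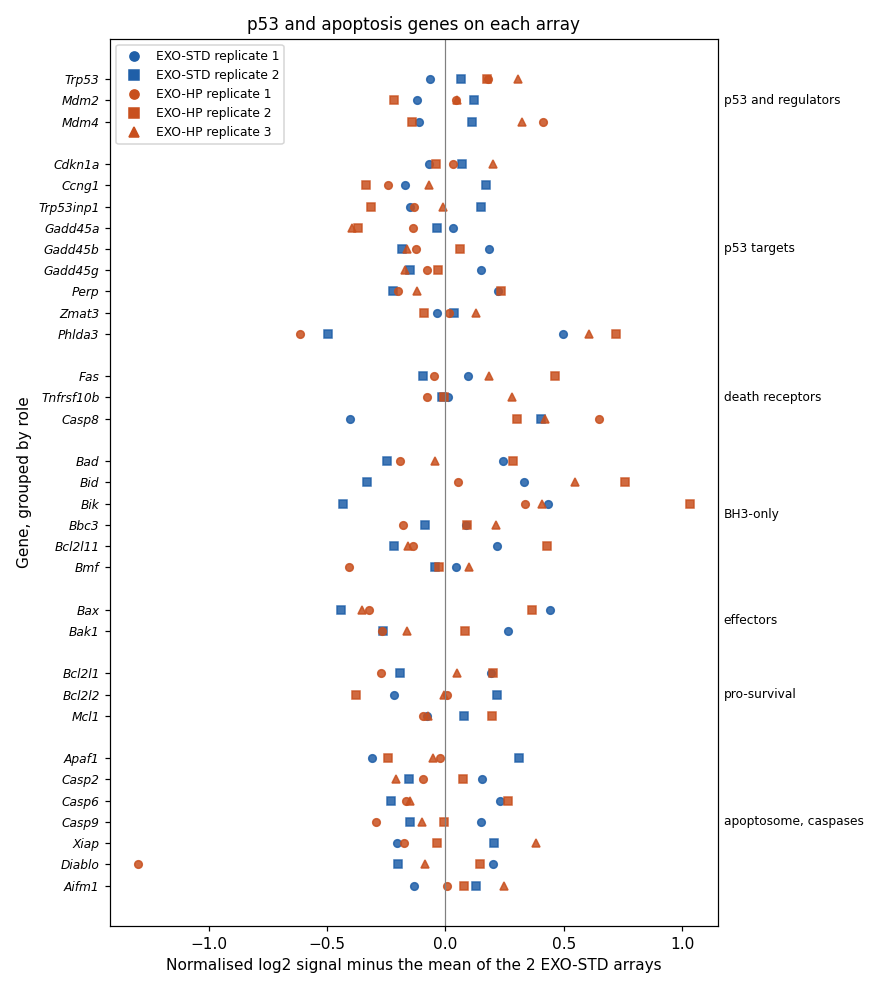
Normalised log2 signal of the 33 tested genes on each of the 5 arrays, minus the mean of the 2 EXO-STD arrays, with genes grouped by role. Points are single arrays, blue for EXO-STD and orange for EXO-HP. In Trp53 and Gadd45a the colours do not overlap, and in Diablo a single EXO-HP array stands far to the left.

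The p53 gene had the smallest pooled within-group SD of the 33 tested genes. Trp53 read -3.16 and -3.03 in EXO-STD and -2.92, -2.92 and -2.79 in EXO-HP, here and throughout in the order of the replicate numbers. Every EXO-HP array was above both EXO-STD arrays, by small steps. Its log2 fold change was 0.22 ± 0.19 (SE), a 1.16-fold higher mean, with a 95% interval from -0.25 to 0.69. With each array's median in place of its 75th percentile, a scaling that shifted the median of all probes from 0.07 to -0.10, the value was 0.04, and with quantile normalisation it was 0.06.

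Both negative regulators of p53 were measured. Mdm2, the ubiquitin ligase that marks p53 for degradation and is itself a p53 target, read 3.21 and 3.45 in EXO-STD and 3.37, 3.11 and 3.38 in EXO-HP. EXO-HP replicates 1 and 3 lay between the EXO-STD arrays and replicate 2 below them, with a log2 fold change of -0.04 ± 0.21 (SE). Mdm4, a relative that masks the activation domain of p53, read -1.69 and -1.47 in EXO-STD and -1.17, -1.72 and -1.26 in EXO-HP. EXO-HP replicates 1 and 3 were higher than both EXO-STD arrays and replicate 2 was lower than both. Mdm4 had a log2 fold change of 0.20 ± 0.25 (SE), and a second probe gave -0.03 ± 0.30.

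Of the 9 genes listed as p53 targets, Gadd45b and Gadd45g among them, 3 had a higher and 6 a lower mean in EXO-HP, with a median of -0.07. Cdkn1a encodes p21, the inhibitor of cyclin-dependent kinases through which p53 arrests the cycle. Its signal was 1.28 and 1.42 in EXO-STD and 1.38, 1.31 and 1.55 in EXO-HP. The groups overlapped, with a log2 fold change of 0.06 ± 0.20 (SE) and a 95% interval from -0.43 to 0.55. That interval reaches a 1.5-fold difference at neither the upper nor the lower end.

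Gadd45a, a stress-induced protein that binds PCNA and p21 and activates stress kinases, was the only tested gene of the module whose EXO-HP arrays all lay below EXO-STD. It read 3.75 and 3.68 in EXO-STD and 3.58, 3.35 and 3.32 in EXO-HP. Replicate 1 of EXO-HP, on the slide it shares with EXO-STD, was closest to the EXO-STD arrays. Between the means the log2 fold change was -0.30 ± 0.20 (SE), or 1.23-fold, and it was -0.14 with slide as a block, which uses the arrays of slide 1 for the difference. Its relatives Gadd45b and Gadd45g had -0.07 ± 0.22 and -0.09 ± 0.20, with overlapping groups.

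Ccng1, cyclin G1, which recruits a phosphatase to Mdm2, read 0.25 and 0.59 in EXO-STD and 0.18, 0.08 and 0.35 in EXO-HP. EXO-HP replicates 1 and 2 lay below both EXO-STD arrays and replicate 3 between them (log2 fold change -0.22 ± 0.22, SE). Trp53inp1, a nuclear stress protein that promotes p53 phosphorylation, read -0.40 and -0.10 in EXO-STD and -0.38, -0.57 and -0.26 in EXO-HP, with a log2 fold change of -0.15 ± 0.21 (SE). Perp, a membrane protein of desmosomes and apoptosis, had -0.03 ± 0.25, and Zmat3, a zinc finger RNA-binding protein, had 0.02 ± 0.19. Phlda3, a PH domain repressor of Akt, had the widest pooled within-group SD of the 33 tested genes. Its readings of -2.43 and -3.42 in EXO-STD and -3.54, -2.20 and -2.32 in EXO-HP put EXO-STD replicate 2 and EXO-HP replicate 1 well below the other 3 arrays. For Phlda3 the log2 fold change was 0.24 ± 0.52 (SE), with a 95% interval from -1.05 to 1.53, so a change of more than 2-fold in either direction lies inside it.

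The promoters of these genes were searched for the p53 half-site, the 10-base palindrome of which a pair makes a p53 response element. They are shown because p53 is known to act on many of these genes through such sites. The search covered RefSeq promoters of build GRCm38.p6, from 250 bases before to 50 after each gene start, on both strands, which a palindrome reads at once. Of the 34 genes, 28 were matched by symbol, with 40 promoters. A half-site was in 7 of the 40 (17.5%), against 8.36% of all 32851 promoters, each of a different gene. The sequences run 5′ to 3′ on the strand of the gene, and capitals mark the half-site.
Cdkn1a: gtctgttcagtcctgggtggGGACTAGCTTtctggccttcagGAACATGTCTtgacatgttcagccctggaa
Mdm2: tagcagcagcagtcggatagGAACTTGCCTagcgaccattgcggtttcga
Gadd45a: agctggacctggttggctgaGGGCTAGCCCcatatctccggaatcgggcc
Ccng1: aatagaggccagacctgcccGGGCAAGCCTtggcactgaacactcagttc
Trp53: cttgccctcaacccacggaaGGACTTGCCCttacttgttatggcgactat
Bax: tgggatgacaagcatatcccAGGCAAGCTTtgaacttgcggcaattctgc
Bmf: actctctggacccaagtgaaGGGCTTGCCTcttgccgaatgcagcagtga

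The Cdkn1a stretch, chr17:29090886-29090957 on the plus strand, holds 2 half-sites with 12 bases between them, 73 to 41 bases before the gene start. A pair at most 13 bases apart was in 24 promoters of the whole table (0.0731%), and Cdkn1a was the 1 gene of the module among them. Mdm2 is shown at chr10:117710915-117710964 (minus strand), Gadd45a at chr6:67037418-67037467 (minus), Ccng1 at chr11:40755442-40755491 (minus) and Trp53 at chr11:69580264-69580313 (plus). Bax is shown at chr7:45467070-45467119 (minus) and Bmf at chr2:118544771-118544820 (minus). All these stretches lie before the gene start of their own promoter, and a gene can have more than 1 promoter. Whether the array probe reads the transcript from that start was not examined. A match describes these letters and is not evidence of binding. The log2 fold changes of the 7 genes, in the order of their sequences, were 0.06, -0.04, -0.30, -0.22, 0.22, -0.10 and -0.11, of both signs, and the 95% interval of each held 0.

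Of the death receptor group, Casp8 and Tnfrsf10b were measured in both groups of arrays, and the 95% interval of each fold change held 0. Casp8, the initiator caspase that death receptors activate, read -1.23 and -0.42 in EXO-STD and -0.18, -0.53 and -0.41 in EXO-HP. EXO-STD replicate 1 was the low array, and EXO-STD replicate 2 lay among the EXO-HP arrays. The EXO-HP mean was 1.37-fold higher (log2 fold change 0.46 ± 0.30, SE). The value was 0.05 without EXO-STD replicate 1 and reached 0.86 without EXO-STD replicate 2.

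Tnfrsf10b, the TRAIL receptor and a p53 target, read -1.52 and -1.54 in EXO-STD and -1.61, -1.54 and -1.25 in EXO-HP. EXO-HP replicate 3 alone stood apart, on the high side, with a log2 fold change of 0.07 ± 0.21 (SE). Fas, the receptor of Fas ligand and also a p53 target, was at the limit of detection. It was well above background on 0 of 2 EXO-STD arrays and 2 of 3 EXO-HP arrays, with readings of -6.58 and -6.77 in EXO-STD and -6.72, -6.21 and -6.49 in EXO-HP. No fold is given for Fas, because its mean in EXO-HP was below the lowest signal that counted as well above background in EXO-STD, and the value drawn for it in the plots is the difference of these dim signals.

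The BH3-only group held the gene with the smallest p of the 33. Of its 6 tested genes, 5 had a higher and 1 a lower mean in EXO-HP, with a median of 0.04. Bik, a BH3-only protein of the endoplasmic reticulum, read -4.44 and -5.31 in EXO-STD and -4.54, -3.84 and -4.47 in EXO-HP. EXO-STD replicate 2 was the lowest array and EXO-HP replicate 2 the highest, while the other 3 lay close together. For Bik the EXO-HP mean was 1.51-fold higher. The log2 fold change was 0.59 ± 0.36 (SE), and it was 1.03 without EXO-STD replicate 1 but 0.16 without EXO-STD replicate 2.

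Bid, which Casp8 cleaves to carry the death receptor signal to mitochondria, read -3.03 and -3.69 in EXO-STD and -3.31, -2.60 and -2.81 in EXO-HP. EXO-HP replicates 2 and 3 lay above both EXO-STD arrays and replicate 1 between them. For Bid the EXO-HP mean was 1.37-fold higher (log2 fold change 0.45 ± 0.32, SE). With slide as a block it was 0.05, and with normexp background correction it was 0.29 for Bid and 0.28 for Bik. The rise of dim probes on EXO-HP replicates 2 and 3 stands beside these values, and its part in them was not tested.

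Bmf, a BH3-only protein released from the cytoskeleton when cells detach, read -2.81 and -2.90 in EXO-STD and -3.26, -2.88 and -2.76 in EXO-HP. Its EXO-HP replicate 1 was low, and its log2 fold change was -0.11 ± 0.23 (SE). Bad, which growth factor signalling silences by phosphorylation, had 0.02 ± 0.26, and Bcl2l11, known as Bim and able to activate Bax and Bak1 directly, had 0.04 ± 0.28. Bbc3, known as PUMA and a major mediator of p53-dependent death, read 0.65 and 0.48 in EXO-STD and 0.39, 0.66 and 0.78 in EXO-HP, for a log2 fold change of 0.04 ± 0.22 (SE). Its EXO-HP arrays lay on both sides of EXO-STD.

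Pmaip1, known as Noxa, which neutralises Mcl1, was the 1 gene of the module left out of the test for low signal. It was well above background on EXO-STD replicate 1 only, with readings of -4.28 and -8.24 in EXO-STD and -8.65, -7.74 and -9.35 in EXO-HP. EXO-STD replicate 2 lay within the EXO-HP range. Set against the background level of the EXO-HP arrays, the EXO-HP mean was 1.51-fold lower, with the dim EXO-STD replicate 2 taken at its own signal. That value rests on the single bright array, is not a firm bound and was not tested.

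The effectors and the pro-survival proteins differed more between arrays of 1 group than between groups. Bax, the pore-forming effector and a p53 target, read 2.45 and 1.57 in EXO-STD and 1.69, 2.38 and 1.66 in EXO-HP. EXO-STD replicate 1 and EXO-HP replicate 2 were high and the other 3 arrays were low. For Bax the log2 fold change was -0.10 ± 0.37 (SE), with a 95% interval from -1.03 to 0.83, and it was 0.34 without EXO-STD replicate 1 and -0.54 without EXO-STD replicate 2. Bak1, the second effector, read 0.76 and 0.24 in EXO-STD and 0.23, 0.59 and 0.34 in EXO-HP, again with EXO-STD replicate 1 and EXO-HP replicate 2 at the top, and a log2 fold change of -0.12 ± 0.25 (SE).

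Among the pro-survival genes, Bcl2l1, which encodes Bcl-xL, read 2.37 and 1.99 in EXO-STD and 1.91, 2.38 and 2.23 in EXO-HP. The lowest and the highest array both came from EXO-HP (log2 fold change -0.01 ± 0.25, SE). Bcl2l2, which encodes Bcl-w, read 1.22 and 1.65 in EXO-STD and 1.44, 1.06 and 1.43 in EXO-HP, with -0.13 ± 0.25. Mcl1, a short-lived guardian that Noxa and Bim bind, read 3.16 and 3.32 in EXO-STD and 3.14, 3.43 and 3.16 in EXO-HP. EXO-HP replicate 2 alone was above both EXO-STD arrays, and the log2 fold change was 0.01 ± 0.21 (SE), with a 95% interval from -0.50 to 0.52.

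Downstream of mitochondria, 2 of 7 means were higher and 5 lower in EXO-HP, with a median of -0.08. Diablo, the mitochondrial protein Smac that relieves caspases of Xiap, had the most negative log2 fold change of the 33 tested genes. It read 1.86 and 1.45 in EXO-STD and 0.35, 1.80 and 1.57 in EXO-HP, so that EXO-HP replicate 1 was far below the other 4 arrays, which overlapped. On all arrays the log2 fold change was -0.41 ± 0.47 (SE), which became 0.03 when EXO-HP replicate 1 was left out. With slide as a block, where EXO-HP replicate 1 is the only array of its group on slide 1, it was -1.30. The second Diablo probe did not show the low array: it read -1.48 and -2.20 in EXO-STD and -1.72, -1.67 and -2.05 in EXO-HP, with a log2 fold change of 0.03 ± 0.29 (SE).

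Casp9, the initiator caspase of the apoptosome, read 0.86 and 0.56 in EXO-STD and 0.42, 0.71 and 0.61 in EXO-HP (log2 fold change -0.13 ± 0.21, SE). Aifm1, the mitochondrial flavoprotein that moves to the nucleus in caspase-independent death, read 1.80 and 2.07 in EXO-STD and 1.94, 2.01 and 2.18 in EXO-HP (0.11 ± 0.21). In both genes 2 of the 3 EXO-HP arrays lay between the EXO-STD arrays. Apaf1, the scaffold of the apoptosome, had -0.11 ± 0.26, and Casp2 and the executioner caspase Casp6 had -0.08 ± 0.21 and -0.02 ± 0.26. Xiap, the inhibitor of the executioner caspases and Casp9, had 0.06 ± 0.26.

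**Figure D2:**
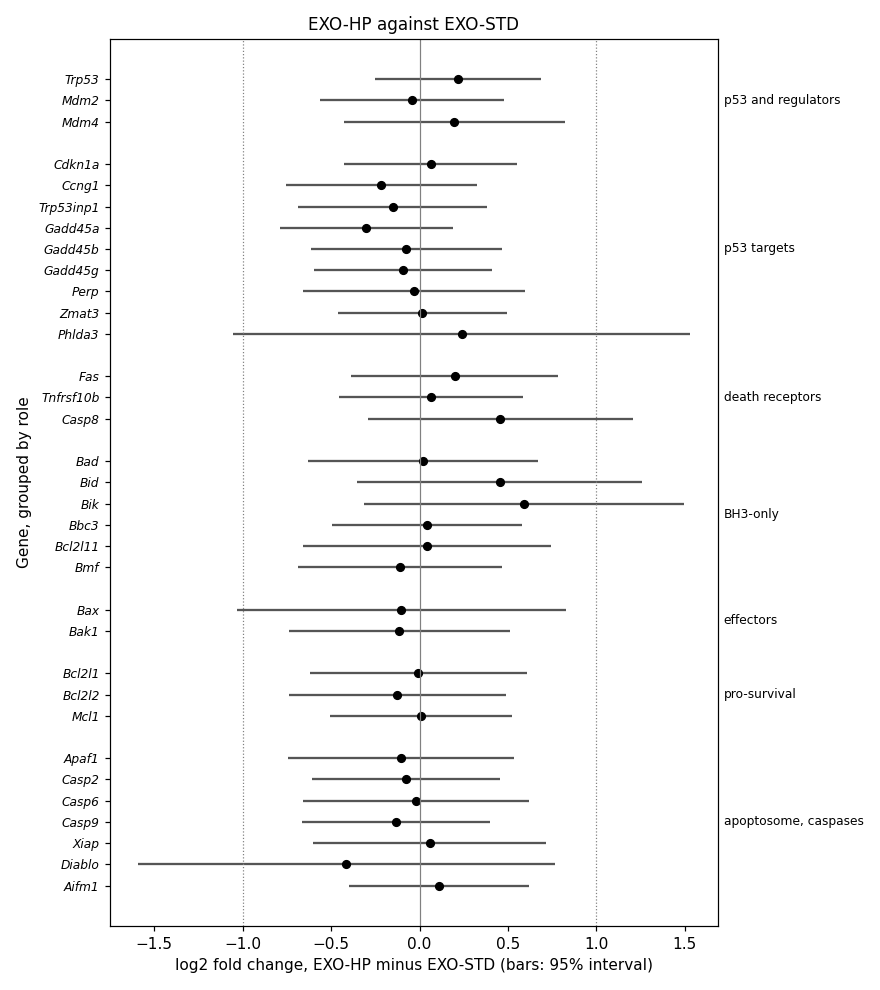
Log2 fold change, EXO-HP minus EXO-STD, of the 33 tested genes with the 95% interval of the limma fit as bars, with dotted lines at 2-fold. Every interval crosses 0, and 27 of the 33 stay between the dotted lines.

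A few probes, of those with a reading frame free of stop codons over their whole length, are printed to show which stretch of the transcript was read. They are the 60-base sequences of the array design, 5′ to 3′, with no bases marked. The array design ties each one to the gene it is listed under, and exon annotation of its mm9 build was not used here.
Trp53: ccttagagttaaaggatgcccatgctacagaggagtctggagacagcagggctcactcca
Casp8: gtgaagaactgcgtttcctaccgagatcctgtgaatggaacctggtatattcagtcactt
Bik: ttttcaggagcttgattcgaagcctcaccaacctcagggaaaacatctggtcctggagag
Bcl2l11: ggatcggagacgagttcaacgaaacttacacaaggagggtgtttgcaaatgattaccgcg
Mdm4, second probe: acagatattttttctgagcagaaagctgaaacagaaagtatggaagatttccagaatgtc
Diablo, second probe: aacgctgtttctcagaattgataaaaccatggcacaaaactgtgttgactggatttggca

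On mm9 these lie at chr11:69404204-69404263 (plus strand) for Trp53, chr1:58901601-58901660 (plus) for Casp8 and chr15:83374048-83374107 (plus) for Bik. The Bcl2l11 probe is given at chr2:127972893-127983988 (plus), a span far longer than its 60 bases. The second probe of Mdm4 lies at chr1:134888407-134888466 (minus) and its brighter probe at chr1:134886426-134886485. The second probe of Diablo lies at chr5:123973293-123973352 (minus) and its brighter probe at chr5:123962170-123962229. The probe of Cdkn1a lies at chr17:29237377-29237436, that of Mdm2 at chr10:117126010-117126069, that of Gadd45a at chr6:66985376-66985435 and that of Bax at chr7:52717122-52717181.

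For 8 genes a pair of probes could be set side by side. The log2 fold change of the brighter and of the other probe was 0.06 and 0.08 for Cdkn1a, -0.15 and -0.03 for Trp53inp1, and 0.02 and 0.12 for Bad. It was -0.01 and 0.17 for Bcl2l1, -0.13 and -0.19 for Bcl2l2, and 0.01 and -0.20 for Mcl1. Mdm4, Bcl2l1, Mcl1 and Diablo thus had probes of opposite sign, and the 95% interval of every one of these values held 0.

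**Figure D3:**
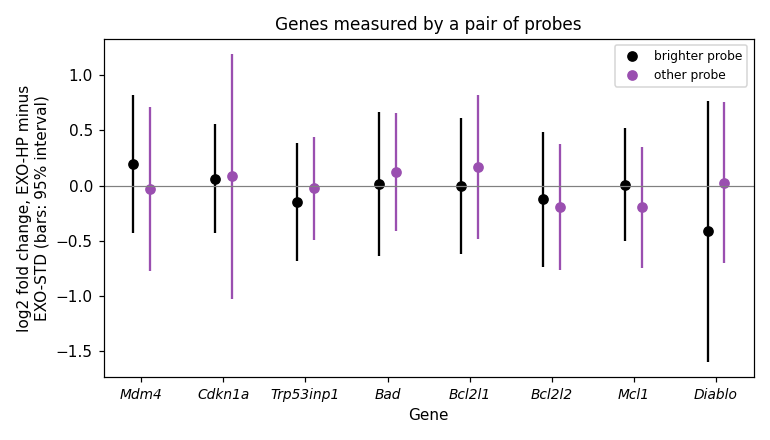
Log2 fold change, EXO-HP minus EXO-STD, for the 8 genes with a pair of tested probes, black for the brighter and purple for the other probe, with 95% intervals as bars. All intervals cross 0, and the bar of Diablo is the widest because 1 EXO-HP array was low on its brighter probe.

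The genes varied unequally among replicates. The pooled within-group SD of the normalised log2 signal had a median of 0.22 over the 33 genes, against 0.30 over all tested probes. Phlda3 (0.73), Diablo (0.65), Bax (0.49) and Bik (0.47) had the widest spread, and Trp53 (0.08), Zmat3 (0.09) and Cdkn1a (0.12) the narrowest. Relative to the EXO-STD mean, the effectors had a median of 0.35 and -0.35 in EXO-STD and of -0.29, 0.23 and -0.26 in EXO-HP. The BH3-only group, here with the untested Pmaip1 included, took the order 0.25, -0.25, -0.18, 0.29 and 0.10 on the same arrays. In both groups EXO-STD replicate 1 and EXO-HP replicate 2 were the highest arrays and EXO-STD replicate 2 the lowest. The p53 regulators ran otherwise, at -0.11, 0.11, 0.18, -0.14 and 0.31, and the p53 targets stayed between -0.13 and 0.03.

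**Figure D4:**
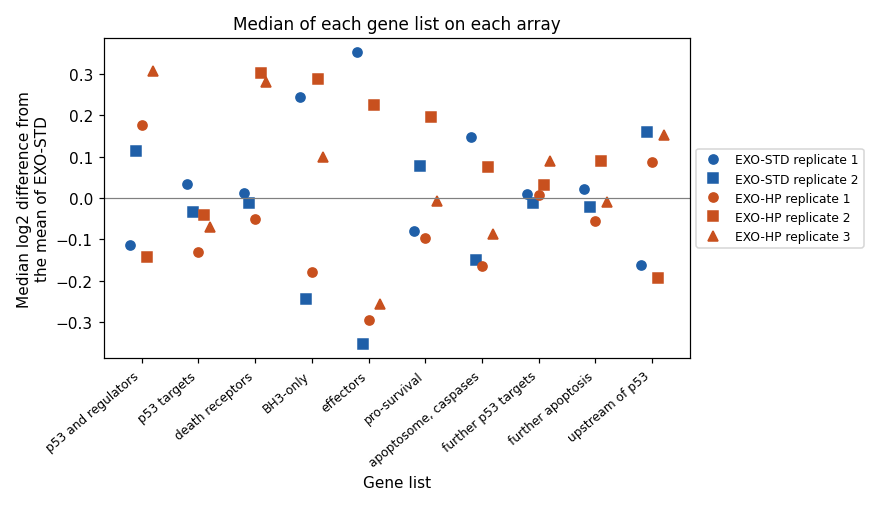
Median log2 difference from the EXO-STD mean on each array for the 7 role groups and 3 further gene lists. The medians include Pmaip1 (BH3-only) and Plk2 (further p53 targets), both left out of the test for low signal. Blue points are EXO-STD and orange points EXO-HP arrays. In the effectors, the BH3-only proteins and the apoptosome group, EXO-STD replicate 1 and EXO-HP replicate 2 lie above the other arrays.

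Other genes of the pathway gave the same count of calls, 0 past adjusted p 0.05 with limma in each list. Of 20 further p53 targets, 19 were tested, with 12 higher, 7 lower and a median of 0.06. Gdf15 and Dram1, counted among the higher, passed the filter on dim probes only through their EXO-HP arrays. Sfn, the 14-3-3 sigma gene that p53 raises at the G2 checkpoint, read -3.59 and -2.93 in EXO-STD and -2.89, -2.32 and -2.39 in EXO-HP, all above EXO-STD. Sfn had a log2 fold change of 0.72 ± 0.31 (SE, limma adjusted p = 0.908). Dram1, a lysosomal protein that links p53 to autophagy, was not well above background in EXO-STD and read -6.05 and -6.20 there, against -6.04, -5.22 and -5.90 in EXO-HP. Btg2, an antiproliferative gene, had -0.20 ± 0.18 with all EXO-HP arrays below EXO-STD.

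Of 21 further apoptosis genes, all were tested, with 12 higher, 9 lower and a median of 0.09. Fasl and Hrk, counted among the higher, passed the filter on dim probes only through their EXO-HP arrays. Hrk, a BH3-only protein of neurons, was well above background on 1 of 2 EXO-STD and 3 of 3 EXO-HP arrays and had 0.69 ± 0.31 (SE, limma adjusted p = 0.920). Birc3, an inhibitor of apoptosis induced by NF-kappaB, had 0.28 ± 0.20, and Tnfsf10, the ligand TRAIL, had 0.21 ± 0.23. Of 13 measured kinases and partners that act on p53, 4 were higher and 9 lower, with a median of -0.05.

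Chek1, the checkpoint kinase that phosphorylates p53 after replication stress, was the 1 gene of these lists with an unadjusted p under 0.05. It read -3.90 and -3.94 in EXO-STD and -3.48, -3.39 and -3.33 in EXO-HP, all above EXO-STD, for a log2 fold change of 0.52 ± 0.19 (SE, limma adjusted p = 0.890). Of all tested probes, 5.6% had an unadjusted limma p under 0.05, and 5.36% had it with a higher mean in EXO-HP. Cdkn2a, whose ARF product holds Mdm2 in check, read 4.10 and 4.30 in EXO-STD and 3.60, 3.87 and 3.98 in EXO-HP, all below EXO-STD, with -0.38 ± 0.22. Ppp1r13b, the p53 partner ASPP1, had 0.28 ± 0.21, all above EXO-STD. Groups did not overlap for 5 of 19, 3 of 21 and 3 of 13 genes in these lists (26.3%, 14.3% and 23.1%), against 17.8% of all probes. The 5 include Dram1 and the 3 of 21 include Hrk. Both passed the filter on dim probes only through their EXO-HP arrays, so their separation carries no weight. The median of each list changed sign under at least 1 alternative in processing.

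Markers of other cells were read on the same arrays, and none passed adjusted p 0.05. Of 12 skeletal muscle markers, 6 were well above background on all arrays, and each of the 6 had a higher mean in EXO-HP, with a log2 fold change of 0.11 for Myh2 and more for the others. The log2 of the summed signal of all 12 was -0.24 and -0.37 in EXO-STD and 1.25, 0.20 and -0.05 in EXO-HP, and Myl1, a fast myosin light chain, was well above background on EXO-HP replicate 1 only. On all arrays 5 of 6 macrophage markers were well above background, all with a higher mean (median 0.36), as did 2 of the 3 such fibroblast markers, Col1a2 (0.75) and Thy1 (0.38), but not Col1a1 (-0.02). The other islet endocrine markers had 2 of 4 tested means higher (median -0.01), and of the endothelial markers Kdr had 0.25 and Pecam1 -0.10. Lyz2 and Pdgfra were not well above background on any array. Over all tested probes 62.8% of means were higher. The part of such RNA in the values of the module was not tested.

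The signs of 8 genes held across every alternative processing that was run: Trp53, Mdm4, Casp8, Bid and Bik higher in EXO-HP, and Ccng1, Trp53inp1 and Gadd45a lower. The other 25 changed sign at least once. The second probe of Mdm4, taken alone, had -0.03. All alternatives use the same arrays, and the share of all probes with a steady sign was not computed. Some could not change a sign: the variance trend and the changes of filter leave each fold change as reported. The replicate block gives the same fold changes as the omission of EXO-HP replicate 3. Trp53 ranged from 0.04 to 0.29, Gadd45a from -0.48 to -0.14, Casp8 from 0.05 to 0.86 and Bik from 0.16 to 1.03. None of the 33 genes passed adjusted p 0.05 in any of the 16 alternatives, and the lowest adjusted p was 0.662, for Bid.

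**Figure D5:**
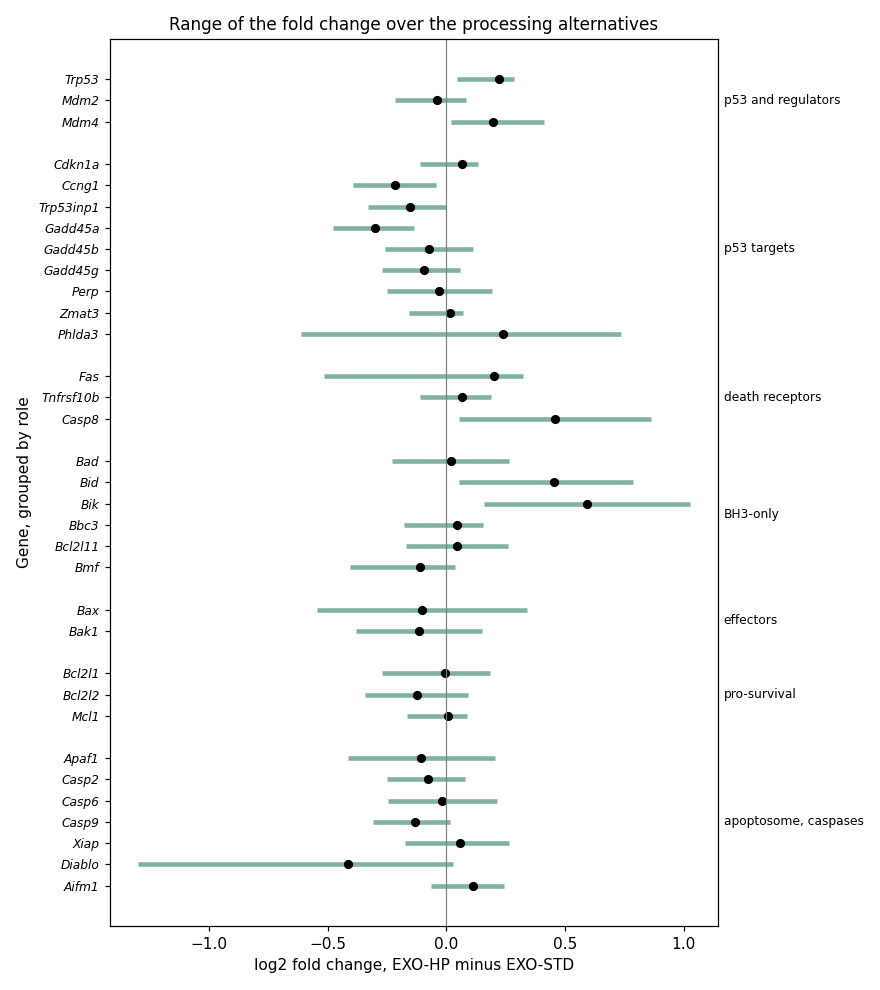
Log2 fold change, EXO-HP minus EXO-STD, of the 33 tested genes as reported (points) and the range over the alternatives in processing, including the omission of single arrays (bars). The bars of 8 genes stay on 1 side of 0, and that of Diablo is the longest, from -1.30 to 0.03.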

How the data were processed

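The scanner tables hold the intensity of each spot in the Cy3 channel, extracted with Feature Extraction 10.7.3.1, background-subtracted and detrended, per the file headers. Version 9.1 and limma stand in the submitters' processing notes instead. The deposited value table holds log2 values, with a median of 7.93 on every array and ranks equal to those of the background-subtracted mean signal of the same array, so its scale is log2 with arrays normalised to each other and genes not centred. It served as an alternative.

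Log2 of the processed signal was taken without outlier spots, repeat spots were averaged, and the 75th percentile of the array was taken off. Of 39429 probes, 110 had no usable spot on some array and 7376 failed to reach 2 arrays of a group well above background, leaving 31943. No spot was saturated. Symbols came from the array tables, updated through RefSeq (GRCm38.p6) for 3358 probes. EXO-HP was compared with EXO-STD in limma 3.58.1 (R 4.3.3, lmFit and eBayes, 3 residual and 2.59 prior degrees of freedom, no covariates), with Benjamini-Hochberg adjustment over all tested probes and a threshold of 0.05; the procedure was tested on simulated data. With 2 and 3 arrays, the smallest p of an exact permutation test is 0.2.

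For a probe that no array of a group showed well above background, the level there was set, per array, to the higher of its own signal and the lowest signal well above background. The genes and lists were chosen with earlier results of these data known. Values on every array are given for Trp53, Mdm2, Cdkn1a and Bax and for the 3 genes with the smallest p in each role group. Those for Phlda3, Bbc3, Pmaip1, Sfn, Dram1, Chek1 and Cdkn2a were added after they were seen. From each further list the 3 genes with the smallest p are named. Alternatives were normexp with an offset of 50, quantile and median scaling, no filter or a stricter one, slide as a fixed or random block, the replicate block, the value table, a variance trend, the mean over a gene's probes, and each array left out.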

Additional observations from a re-analysis of the deposited data

How the results depend on the processing

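No gene of the module passed adjusted p 0.05 under any of the 16 alternatives. The median log2 fold change of the 33 genes was -0.18 with scaling to the array median (over all probes the median then went from 0.07 to -0.10). Slide as a fixed block gave -0.12. Over the omission of single arrays it ran from -0.07 to 0.08, and it was -0.01 over probes well above background on all arrays, which leaves out Fas. At an unadjusted limma p under 0.05 there was 1 gene with slide as a fixed block (Diablo, -1.30, limma adjusted p = 0.9999). Of all 31943 tested probes, 843 were under it with that block. With any single EXO-HP array left out there were 0 genes of the module, against 950 to 3411 of all probes. Where 1 EXO-STD array was left, only the size of the difference is given for genes of the module, and none are counted by p. Bik had 1.03 without EXO-STD replicate 1 and Casp8 had 0.86 without EXO-STD replicate 2. Among all probes, 0 to 3 passed adjusted p 0.05 over these omissions. The 3 came without EXO-STD replicate 1 (Btbd10, Polr1e and LOC100048394), where the lone EXO-STD array is assumed to vary like the EXO-HP arrays, and none is in the module. The replicate block leaves EXO-HP replicate 3 without a partner, so its fold changes equal those without that array. Their median over the 33 genes was -0.03 and 0 passed. Same-numbered arrays deviated together with r of 0.02 and -0.06 across probes. The deviations of the 2 EXO-STD arrays mirror each other, so these values cannot settle whether the numbers pair the samples. The medians of the further lists also changed sign, and the cause was not tested. That of the apoptosis list was negative with quantile normalisation (-0.07), median scaling (-0.09), the deposited value table (-0.06), slide as a fixed block (-0.06), without EXO-STD replicate 2 (-0.05) and without EXO-HP replicate 2 (-0.04). That of the p53 targets was negative with median scaling (-0.12), quantile normalisation (-0.0048) and the deposited value table (-0.02). That of the upstream partners was positive with slide as a fixed block (0.09), without EXO-STD replicate 2 (0.16) and without EXO-HP replicate 2 (0.02). Signals near background limit Fas and Pmaip1.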
